A study of Mus musculus with 5 samples.

Results

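Reads of mature mouse miRNAs that stop short of the annotated 3′ end were examined in 5 small RNA libraries of testis cells. A tag, meaning 1 distinct read sequence, was taken when it matched its miRNA without mismatch, was placed on only 1 miRNA name, held no unread base and began at the annotated 5′ start, but ended before or after the annotated last base. The difference in bases is the offset, negative for a trimmed tag and positive for an extended one. Names were kept when they had at least 1000 exact, uniquely placed reads summed over the libraries, which left 216 of the 514 names with any such read. These names carried 1320 distinct trimmed tags, out of 98027 distinct tags of any kind in the libraries. No tag ended past the annotated end, whatever its number of mismatches (0 of 175131 tags counted per library), so the deposited placements give no measure of templated extension and all values below concern trimming. Each of the 216 names had both a trimmed and an annotated-end tag, with 1 to 10 different trimmed tags per name (median 6.0).

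The cells came from testes of C57BL/6 mice and were sorted with a Thy1.2 MACS antibody, that is, with magnetic beads against a surface protein carried by spermatogonial stem cells. The groups were the Thy1+ cells, enriched for stem cells (2 libraries), the Thy1- cells, enriched for somatic cells (2 libraries), and a germ cell culture grown from enriched Thy1+ cells for about 10 passages (1 library). The Thy1- samples carry the stem cell name in their cell type label, and their titles were used. Sorted fractions are mixtures, so a share within a miRNA is an average over all cell types that make it, and fewer cells of a type cannot be told apart from less RNA per cell. No label says that the replicates came from different animals, so p-values measure only the spread between these samples, and the culture has no replicate.

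A miRNA is cut from its hairpin stepwise. Drosha sets the 3′ end of products from the 3′ arm, Dicer sets that of products from the 5′ arm, and exonucleases can then shorten the end while the RNA sits in Argonaute. The seed, bases 2 to 8, lies at the other end of the molecule and guides target choice, so all trimmed tags described here keep the seed of their miRNA. The 3′ end is held in the PAZ domain of Argonaute, and its length is known to affect how stable some miRNAs are. miR-451 is an exception to this route, since Argonaute 2 cuts its hairpin without Dicer and the exonuclease PARN then trims it.

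The annotated tags of the miRNAs on which the results turn are given 5′ to 3′ as deposited, in DNA letters. Capitals near the 5′ end mark the seed, and capitals at the 3′ end mark the bases missing from the most common trimmed tag of that name. Coordinates are from RefSeq on GRCm38.p6 and gene overlaps from GENCODE M21. Of the 216 names, 187 matched a mature RefSeq entry, and for 185 of these the RefSeq 3′ end was the one used here; the RefSeq end of miR-181b lies 1 base further and that of miR-222 2 bases further. The let-7 family, known for promoting differentiation, is shown first because its members share the seed GAGGTAG and an almost common 3′ end.
let-7a: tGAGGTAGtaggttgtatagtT
let-7b: tGAGGTAGtaggttgtgtggtT
let-7c: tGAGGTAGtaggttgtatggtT
let-7d: aGAGGTAGtaggttgcatagtT
let-7e: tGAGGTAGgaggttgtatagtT
let-7f: tGAGGTAGtagattgtatagtT
let-7g: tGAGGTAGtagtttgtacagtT
let-7i: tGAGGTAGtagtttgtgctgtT
miR-98: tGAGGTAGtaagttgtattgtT
let-7e lies at chr17:17830366-17830387 (+ strand) in an intron of Spaca6, let-7g at chr9:106178846-106178867 (+ strand) in an intron of Wdr82, and miR-98 at chrX:151913229-151913250 (+ strand) in an intron of Huwe1. let-7a, at chr13:48538239-48538260 (- strand) for the Mirlet7a-1 copy, and let-7f, at chr13:48537889-48537910 (- strand) for the Mirlet7f-1 copy, lie in exons of the long non-coding RNA 6720427I07Rik.

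A further set is shown because its members had the clearest differences between groups in deep trimming. It holds miR-23a, a miRNA of many tissues, 3 products of the cluster spanning miR-290 and miR-295, a hallmark of embryonic stem cells, miR-32, and miR-541 of the imprinted Dlk1-Dio3 cluster.
miR-23a: aTCACATTgccagggatttcC
miR-292-3p: aAAGTGCCgccaggttttgagtGT
miR-293: aGTGCCGCagagtttgtagtGT
miR-295: aAAGTGCTactacttttgagtcT
miR-32: tATTGCACattactaagttgcA
miR-541: aAGGGATTctgatgttggtcacACT
miR-23a lies at chr8:84208563-84208583 (+ strand), outside other annotated genes. The cluster products miR-292-3p at chr7:3219238-3219261 (+ strand), miR-293 at chr7:3220390-3220411 (+ strand) and miR-295 at chr7:3220815-3220837 (+ strand) overlap exons of Nlrp12 on the opposite strand. miR-32 lies at chr4:56895272-56895293 (- strand) in an intron of Tmem245, and miR-541 at chr12:109742422-109742446 (+ strand) in an intron of the long non-coding RNA Mirg.

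The last set shows near-identical miRNAs whose 3′ ends behaved differently, and an abundant miRNA with a very low trimmed share, miR-34c, known from meiotic and postmeiotic germ cells.
miR-20a: tAAAGTGCttatagtgcaggtAG
miR-106b: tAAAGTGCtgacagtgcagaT
miR-29a: tAGCACCAtctgaaatcggttA
miR-29b: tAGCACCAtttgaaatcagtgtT
miR-29c: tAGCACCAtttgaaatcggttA
miR-99a: aACCCGTAgatccgatcttgtG
miR-100: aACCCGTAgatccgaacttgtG
miR-10b: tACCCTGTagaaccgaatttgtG
miR-125a-5p: tCCCTGAGaccctttaacctgtGA
miR-125b-5p: tCCCTGAGaccctaacttgtgA
miR-34c: aGGCAGTGtagttagctgattGC
miR-449a: tGGCAGTGtattgttagctggT
miR-182: tTTGGCAAtggtagaactcacaccG
miR-451: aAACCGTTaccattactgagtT
miR-34c lies at chr9:51103076-51103098 (- strand), in an intron of Btg4 on the opposite strand, and miR-182 at chr6:30165962-30165986 (- strand), outside other annotated genes. miR-20a at chr14:115044183-115044205 (+ strand) lies in an exon of the miR-17 host gene Mir17hg, and miR-106b at chr5:138165787-138165807 (- strand) in an intron of Mcm7.

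The libraries held 776134 and 738943 (Thy1+), 2157038 and 4176265 (Thy1-) and 4436030 (culture) exact reads of these names with the annotated start. All shares below are taken from these reads, except those of the cell type markers. In addition, 3.34% of exact, uniquely placed reads began at another base and were not used for trimmed shares. Same-numbered replicates did not deviate together: over 168 names, the deviations of the Thy1+ and the Thy1- libraries from their group means correlated at -0.49 (Pearson, across miRNAs, which are not independent). The trimmed share of 209 names correlated at a Spearman rho of 0.962 both between Thy1+ replicate 1 and Thy1- replicate 2 and between Thy1+ replicate 2 and Thy1- replicate 1, against 0.927 for the Thy1+ and 0.959 for the Thy1- replicates. Of the 209 names, both Thy1+ values lay below both Thy1- values in 62 (29.7%) and above them in 14 (6.70%). For 72 of 168 names the values of Thy1+ replicate 1 and Thy1- replicate 2 did not overlap, in either direction, those of the other fresh libraries. The 168 names had at least 100 reads in each of the 5 libraries, and the 209 names at least 20. Counts over these 2 sets are therefore not directly comparable. The pairing of Thy1+ replicate 1 with Thy1- replicate 2 was chosen after the data were seen. The labels name 2 versions of the library protocol without assigning them, so the part of the protocol in this pattern was not tested. Shares of cell type markers were taken from all exact, uniquely placed reads, of any name and start. Markers of white blood cells (5 miRNAs) made up 1.61% and 2.93% of these reads in Thy1+, 0.209% and 0.140% in Thy1- and 0.0981% in the culture, with none of them at 0. Markers of the gonadal somatic cells (both arms of miR-202) made up 0.119% and 0.235%, 1.95% and 0.384%, and 0.0171% in the same order. Markers of mesenchyme made up 1.88% and 2.15%, 3.20% and 1.26%, and 3.96%, so this list was highest in the culture. Those of red blood cells made up 0.0258% and 0.0186%, 0.140% and 0.151%, and 0.00122%. For endothelium the values were 0.208% and 0.294%, 0.101% and 0.179%, and 0.0593%. For striated muscle they were 0.155% and 0.174%, 0.102% and 0.0307%, and 0.119%, and 1 muscle marker was at 0 in the culture. miR-199a-3p of mesenchyme had no uniquely placed tag. The part of other cell types in the differences below was not tested.

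Trimmed reads made up 31.3% of all reads of these names, 3850138 of 12284410. Per library the share was 28.3% (95% Clopper-Pearson interval 28.19% to 28.39%) and 31.4% (31.26% to 31.48%) in Thy1+, 35.1% (35.06% to 35.18%) and 34.6% (34.52% to 34.61%) in Thy1-, and 27.0% (26.96% to 27.04%) in the culture. These intervals, like all others given here, cover counting error only. The 2 Thy1- libraries were above both Thy1+ libraries, and the culture was the lowest of the 5. The place of the culture depended on the names and the reference end: without the let-7 list it stood at 29.2%, above the 28.6% of Thy1+ replicate 1, and with the most common end as reference at 17.7%, above 17.1% in that library. The means were 29.8% ± 2.18 in Thy1+ and 34.8% ± 0.394 in Thy1- (SD, n = 2 each), and the exact permutation test (two-sided) gave p = 0.33, below which groups of 2 cannot go, also after adjustment over 4 library measures.

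Loss of 1 base was the main form of trimming. It accounted for 70.9% and 71.8% of the trimmed reads in Thy1+, 66.6% and 64.1% in Thy1- and 80.6% in the culture. As a share of all reads, loss of exactly 1 base stayed within a narrow range, 20.1% and 22.5% in Thy1+, 23.4% and 22.2% in Thy1-, and 21.8% in the culture. The libraries differed more in deeper trimming. Reads short by at least 2 bases made up 8.23% and 8.83% in Thy1+, 11.7% and 12.4% in Thy1-, and 5.23% in the culture, in which this share was below that of each fresh library. The Thy1+ and Thy1- means of 8.53% ± 0.428 and 12.1% ± 0.473 (SD, n = 2) again gave p = 0.33 in the exact permutation test. Without the 9 let-7 members, which held 23.3% and 25.6% of reads in Thy1+, 44.9% and 49.6% in Thy1- and 34.4% in the culture, the order was kept, with 7.55% and 8.59%, 9.47% and 11.7%, and 5.71%. The median length was 22 bases for annotated-end reads and 21 bases for trimmed reads in each library, and 85.8% to 92% of trimmed reads were still 20 to 22 bases long.

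Single miRNAs spanned almost the whole range. With the reads of all libraries pooled, the trimmed share ran from 0.924% for miR-34c to 99.8% for miR-145*, with quartiles of 15.3%, 32.5% and 54.6%. It was under 5% in 14 names, over 50% in 60 and over 90% in 7. The annotated end was the most common end in 165 names, and in 51 names a shorter end was, by 1 base in 41, by 2 bases in 9 and by 3 bases in 1. That 1 name was miR-541. Among trimmed tags alone, the most common lacked 1 base in 179 names, 2 bases in 29, 3 bases in 6 and more in 2. A name's share usually varied less between libraries than names varied from each other: the median range over the 5 libraries was 10.8 percentage points. The 10 names with most trimmed reads were let-7c, let-7f, let-7a, miR-143, miR-10b, miR-21, miR-99b, let-7b, miR-182 and miR-181a, and they held 63.8% of all trimmed reads.

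The highest shares belonged to miRNAs of quite different abundance. miR-143, a miRNA of smooth muscle and fibroblasts, was trimmed in 96.9% and 95.6% of its Thy1+ reads, 95.1% and 94.5% of its Thy1- reads and 98.0% of its culture reads, with 312304 reads in all. Nearly all of that was loss of 1 base, 88.7% of its reads. miR-10b, which lies among the Hoxd genes, was trimmed in 90.2% and 89.8%, 87.5% and 92.7%, and 91.6%, and in it too the tag short by 1 base held most reads (84.1%). For both, the 5 libraries lay within a few percentage points, and the annotated end was a minor form in every library. The other names at the top were much rarer. miR-145* (1153 reads, 99.8%), miR-293* (1027 reads, 99%), miR-1195 (1940 reads, 96.4%) and miR-33 (3113 reads, 95.4%), which lies in an intron of Srebf2, a regulator of cholesterol synthesis, each had its trimmed tags as the large majority in every library.

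Among the lowest shares was that of miR-34c, with 1213074 reads, of which 946413 came from the culture. It was trimmed in 0.843% and 1.63% of reads in Thy1+, 1.36% and 2.19% in Thy1-, and 0.811% in the culture (interval 0.793% to 0.829%). All 5 libraries were thus far under their own median over names, which was 31.1% and 28.3% in Thy1+, 34.1% and 33.4% in Thy1-, and 28.1% in the culture. Within the miR-34 family, which shares the seed GGCAGTG, miR-34b-5p, from the same region of chromosome 9, stood at 15.9%, miR-34a at 16.9% and miR-449a at 49.6%. Other names under 5% included miR-20a (1.19%), miR-152 (1.74%), miR-17 (3.07%), miR-465a-5p (3.28%) of the X-linked testis cluster and miR-148a (3.86%). Averaged over the libraries with equal weight, miR-20a was lower (1.20%) than miR-34c (1.37%).

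Members that share a seed often differed in their 3′ ends. With the seed AAAGTGC of the miR-17 family, miR-20a, miR-20b, miR-17 and miR-93 were trimmed in 1.19%, 2.93%, 3.07% and 6.57% of reads, and miR-106b in 48.6%. As the printed sequences show, miR-106b is annotated to end earlier than miR-20a, and with another base. miR-106b was trimmed in 53.5% and 44.4% (Thy1+), 41.9% and 53.2% (Thy1-) and 52.0% (culture), and miR-20a in 0.886% and 1.53%, 1.48% and 1.10%, and 0.985%. The ranges of these 2 miRNAs over the libraries did not come near each other.

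In the miR-29 family, known as a brake on collagen genes, miR-29a and miR-29c share their last bases and were trimmed in 89.8% and 80.8% of reads, whereas miR-29b, with another 3′ end, was trimmed in 15.4%. miR-29a stood at 91.8% and 78.0% in Thy1+, 88.0% and 88.5% in Thy1-, and 90.9% in the culture. miR-29b stood at 8.64% and 21.9%, 38.6% and 24.3%, and 11.8%, lower than miR-29a in each library. miR-99a and miR-100 were trimmed in 86.6% and 84.4% of reads, and miR-99b, with the same seed ACCCGTA, in 54.9%. Of the pair with the seed ACCCTGT, miR-10a stood at 73.4% and miR-10b at 91.1%. miR-125a-5p lost its last 2 bases most often and was trimmed in 72.0% of reads, while miR-125b-5p, with the same seed, was trimmed in 15.2%, and the most common tags of these paralogs were equally long. Within the seed ATTGCAC, miR-25 stood at 17.2%, miR-92a at 50.0% and miR-32 at 86.4%. The members of the miR-181 family stood at 17.1% (miR-181c), 37.5% (miR-181d), 49.8% (miR-181a) and 71.7% (miR-181b).

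Some features of the annotated miRNA went with the share, as a description over names. The 102 products of the 5′ arm had a median trimmed share of 34.7%, and the 74 products of the 3′ arm one of 24.2%. The 5′ arm median was above that of the 3′ arm in each library, with 34.6% and 24.3% in Thy1+ replicate 1, 35.6% and 21.4% in replicate 2, 38.4% and 26.7% and then 36.5% and 24.5% in the Thy1- replicates, and 33.8% and 22.6% in the culture. The ranges of the arms overlapped almost fully, from 1.19% to 99% and from 1.74% to 89.8%. The arm was known for 176 names. The last base of the annotated miRNA made little difference, with medians of 35.3% for A, 31.9% for C, 30.6% for G and 32.5% for T. The medians lay further apart by the last 2 bases, which make more and smaller classes with wide ranges. The 17 names ending in AG had a median of 9.04% (1.19% to 58.1%), the 11 names ending in GC one of 17.6% (0.924% to 88.3%) and the 6 names ending in TC one of 16.1% (10.8% to 96.7%). The 11 names ending in CA had a median of 69.9% (4.79% to 96.4%), the 5 ending in TA one of 74.8% (36.6% to 89.8%) and the 18 ending in TG one of 52.9% (8.98% to 99.8%). Of the 6 names ending in TTGTG, miR-10a, miR-10b, miR-99a and miR-100 were trimmed in 73.4% to 91.1% of reads, but miR-15a only in 37.2% and miR-652 in 11.0%. The median was 24.0% for the 33 names annotated at 21 bases, 32.5% for the 129 at 22 bases and 30.5% for the 46 at 23 bases. The 3 names of 24 bases ranged from 63.2% to 87.4%, and the 2 names of 25 bases, miR-182 and miR-541, stood at 70.9% and 79.1%.

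The first comparison asked whether the stem cell enriched Thy1+ cells and the Thy1- cells trim single miRNAs to a different extent. For each name, trimmed and other reads were compared between the groups with edgeR's quasi-likelihood test, in which the effect is the log2 ratio of the odds of being trimmed. Of 285 names tested, which need at least 20 reads in each library and include 215 of the 216, none passed an adjusted p of 0.05 in either direction (0% called), with 17 at an unadjusted p under 0.05. limma on the log2 odds also called 0, and DESeq2 called 2, miR-292-3p and miR-30a*, both lower in Thy1+. The smallest edgeR adjusted p was 0.151, for miR-292-3p. The effects leaned to less trimming in Thy1+, with 145 of 215 below 0 and a median of -0.20, beside a median of -0.23 over all names tested. Both Thy1+ values lay below both Thy1- values in 63 of the 215 names (29.3%), beside 29.1% of all 285 names tested, and above them in 14 (6.51%), beside 6.32%. These shares are near those of all names tested. The median standard error was 0.36, which limits what could be detected with 2 libraries a group.

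Deep trimming separated the fractions for a few miRNAs. The share of reads short by at least 2 bases was lower in Thy1+ for 7 of 285 names (2.46%) and higher for 0 (0%), and 36 had an unadjusted p under 0.05. DESeq2 called 3 lower and limma 6 lower, and both called 0 higher. Among the called names were 6 of the 215 studied here: miR-23a, miR-292-3p, miR-293, miR-295, miR-32 and miR-18a. The largest difference was that of miR-23a. Its reads lacked at least 2 bases in 2.51% and 6.67% in Thy1+, 30.3% and 33.7% in Thy1-, and 2.66% in the culture, so the fractions were far apart (log2 odds ratio -3.33, SE 0.50, edgeR adjusted p = 2.58e-08). This was a single tag, the one short by 2 bases, with 8 and 22 reads in Thy1+, 115 and 178 in Thy1- and 139 in the culture, since shorter tags of miR-23a are the same as those of miR-23b and were left out.

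The paralog miR-23b differs from miR-23a near the 3′ end. Its share short by 2 bases was 2.79% and 2.40% in Thy1+, 3.46% and 4.08% in Thy1- and 1.25% in the culture (log2 odds ratio -0.56, SE 0.66, edgeR adjusted p = 0.850). The tag of both names short by 3 bases held 27 and 26 reads in Thy1+, 198 and 373 in Thy1-, and 94 in the culture. It was thus more frequent in Thy1-, where annotated-end reads of miR-23b (393 and 557) outnumbered those of miR-23a (193 and 250). In Thy1+, those of miR-23a were the more numerous, with 223 and 227 against 121 and 124. A miR-23b read short by 3 bases with an added T carries the letters of the miR-23a tag short by 2 bases, and the share of such reads was not tested.

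Products of the embryonic stem cell cluster also fell in Thy1+. miR-292-3p lacked at least 2 bases in 36.5% and 50.5% of reads in Thy1+ and in 82.3% and 80.9% in Thy1- (log2 odds ratio -2.51, SE 0.45, edgeR adjusted p = 7.01e-06). miR-293 did so in 29.2% and 16.3%, and in 40.1% and 57.8% (-1.77, SE 0.44, adjusted p = 0.00577), and miR-295 in 9.11% and 2.99%, and in 11.0% and 15.6% (-1.47, SE 0.44, adjusted p = 0.0328). In none of these 3 did the fractions overlap, although miR-293 and miR-295 also varied between replicates of a fraction. Of the 7 members of this cluster that were tested, all 7 had an effect below 0, with a median of -1.13 beside -0.32 over the 215 names, and 3 were called. miR-292-5p, which was not called, stood at 19.6% and 14.2% in Thy1+ and 23.1% and 38.2% in Thy1- (-1.13, SE 0.45, adjusted p = 0.199). Of the exact reads of the studied names with the annotated start, the list made up 0.726% and 1.81% in Thy1+. It made up 0.111% and 0.0671% in Thy1- and 0.0871% in the culture. miR-292-3p had 241 and 590 reads in Thy1+ and 633 and 194 in Thy1-. miR-32 stood at 7.14% and 3.83% in Thy1+ and 9.65% and 24.0% in Thy1- (-1.78, SE 0.48, adjusted p = 0.0191). miR-18a of the miR-17 cluster was called although its fractions overlapped, with 2.37% and 23.9% in Thy1+ and 37.2% and 11.8% in Thy1- (-1.57, SE 0.45, adjusted p = 0.0299), and its effect was 0.15 without Thy1+ replicate 1. Of the 6 names, DESeq2 called miR-23a, miR-292-3p and miR-293 (adjusted p = 0.0450) but not miR-295 (0.218), miR-32 (0.168) or miR-18a (0.943), and with a minimum of 100 reads edgeR called only miR-23a and miR-292-3p. The effect of miR-295 was -2.31 without Thy1+ replicate 1 and -0.61 without Thy1+ replicate 2, and that of miR-32 -2.53 without Thy1- replicate 1 and -0.97 without Thy1- replicate 2. The number of called names fell to 0 when either Thy1- library was left out. It was 5 without Thy1+ replicate 1, with miR-18a lost, and 4 without Thy1+ replicate 2, with miR-293, miR-295 and miR-32 lost.

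The second comparison set the culture against fresh Thy1+ cells, the kind of cells it was grown from. All 5 libraries were fitted together, and the lone culture library was taken to vary as the fresh ones do. For trimming by any number of bases, none of 273 names, 209 of them studied here, passed in either direction (0% called), with 21 at an unadjusted p under 0.05. limma called 0 as well, and DESeq2 called 3, with miR-541 lower and miR-125a-5p and miR-182 higher in the culture. The median effect was -0.05 over the 209 names, with 111 below 0, beside -0.06 over all. miR-182, a miRNA of the miR-183 cluster known from sensory organs, was trimmed in 55.3% and 63.0% in Thy1+, 63.1% and 63.0% in Thy1-, and 80.8% in the culture (interval 80.5% to 81.1%). The culture lay above the other 4 libraries, but the edgeR adjusted p was 0.366 (log2 odds ratio 1.53, SE 0.35). miR-125a-5p showed a similar picture, with 65.1% and 67.9%, 69.1% and 71.0%, and 83.9% (interval 83.1% to 84.6%, log2 odds ratio 1.39, SE 0.35, edgeR adjusted p = 0.366). In both comparisons, the fits for any trimming and for deep trimming each estimated their own spread. Each also had its own degrees of freedom, which state how firmly that spread is known. The SE already holds the spread, so like ratios of effect to SE can have unlike p-values only through these degrees of freedom. The numbers of called names are therefore not directly comparable between these fits.

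In the culture, reads short by at least 2 bases fell for 5 of the 9 let-7 members. For this share, 7 of 273 names (2.56%) were lower in the culture than in Thy1+ and 0 were higher (0%), with 24 at an unadjusted p under 0.05. DESeq2 called 5 lower and limma 7 lower, and both called 0 higher. All 7 were among the 209 names studied here, and 5 of them were let-7a, let-7e, let-7f, let-7g and miR-98 of the let-7 family. The others were miR-541 and miR-292-3p. let-7g lacked at least 2 bases in 8.36% and 5.57% of reads in Thy1+, 8.03% and 9.55% in Thy1-, and 1.54% in the culture (interval 1.44% to 1.65%; log2 odds ratio -2.23, SE 0.43, edgeR adjusted p = 0.000108). let-7e stood at 19.3% and 15.2%, 24.5% and 23.7%, and 4.24% (4.03% to 4.46%; -2.23, SE 0.46, adjusted p = 0.000248). In both, the culture value was well under that of every fresh library.

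The other 3 called members behaved alike. let-7f stood at 9.52% and 8.15% in Thy1+, 15.5% and 13.5% in Thy1-, and 2.84% in the culture (2.80% to 2.88%; log2 odds ratio -1.72, SE 0.39, edgeR adjusted p = 0.000866). let-7a stood at 12.5% and 11.6%, 17.9% and 18.4%, and 4.20% (4.14% to 4.26%; -1.64, SE 0.39, adjusted p = 0.00187), and miR-98 at 10.3% and 8.46%, 8.40% and 8.60%, and 2.54% (2.02% to 3.14%; -1.99, SE 0.60, adjusted p = 0.0358). For each of the 3 the culture was again the lowest of the 5 libraries. let-7c (8.89% and 8.19%, 11.7% and 9.82%, 4.96%), let-7d (14.0% and 10.3%, 19.9% and 17.1%, 5.88%) and let-7i (19.1% and 13.4%, 21.0% and 21.6%, 9.24%) had the same order but did not pass, with effects of -0.84 (SE 0.38), -1.13 (SE 0.46) and -0.91 (SE 0.48). let-7b was the exception. It stood at 12.5% and 15.3% in Thy1+, 15.6% and 12.0% in Thy1- and 17.1% in the culture (16.8% to 17.4%; 0.36, SE 0.41, adjusted p = 0.879), so the culture was the highest of the 5. The family median was -1.64, beside -0.20 over the 209 names and -0.12 over all 273.

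Loss of exactly 1 base was not tested in let-7. In this share the culture lay within the range of the 4 fresh libraries for 5 of the 9 members, above it for 4 and below it for 0. let-7a tags short by 1 base made up 14.6% and 17.2% in Thy1+, 16.8% and 15.4% in Thy1-, and 16.9% in the culture, and tags short by 2 bases 11.9% and 11.0%, 16.8% and 17.4%, and 3.88%. As printed above, the tag short by 2 bases has lost both terminal T letters. The trimmed share as a whole was called for none of the 9 members in either comparison by edgeR (medians of -0.26 for Thy1+ against Thy1- and -0.30 for culture against Thy1+). Between Thy1+ and Thy1-, the share short by at least 2 bases had an effect below 0 in 7 of 9 members (median -0.50) and none was called.

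miR-541 and miR-292-3p were the other names that fell in the culture. miR-541, whose most common end lies 3 bases before the annotated one, lacked at least 2 bases in 67.4% and 75% of reads in Thy1+, 74.3% and 75% in Thy1-, and 36.5% in the culture (33.8% to 39.3%; log2 odds ratio -2.11, SE 0.46, edgeR adjusted p = 0.000456). Its culture share rested on 1221 reads and was under all 4 fresh values. miR-292-3p stood at 16.2% in the culture (12.2% to 20.9%, 296 reads; -2.0, SE 0.59, adjusted p = 0.0341), below the 36.5% and 50.5% of Thy1+; both comparisons of this name share the Thy1+ libraries. The number of called names was 0 when either Thy1- library was left out of the fit, 5 without Thy1+ replicate 1 and 2 without Thy1+ replicate 2. let-7e and let-7g were called in both of the latter fits, whereas let-7a, let-7f and miR-98 were called in neither (edgeR adjusted p from 0.0545 to 0.302). miR-98 and miR-292-3p were also not called by DESeq2 (adjusted p = 0.0570 and 0.136) or with a minimum of 100 reads (0.0747 and 0.0856). Leaving out a Thy1- library changes the spread and the degrees of freedom used for the test, while the libraries compared stay the same.

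By edgeR's test, the remaining groups gave no called name in trimming by any number of bases, in either comparison. DESeq2 called miR-30a* of the miR-30 list in Thy1+ (adjusted p = 0.0485), and in the culture miR-182 (0.0177), miR-125a-5p (0.0177) and miR-541 (0.00557). The 15 X-linked testis miRNAs, which are expressed in male germ cells, were trimmed little, with a median of 16.0% (3.28% to 54.5%). Their highest, miR-741, lost 1 base in most of its trimmed reads and stood at 54.3% and 44.4% in Thy1+, 64.5% and 50.1% in Thy1-, and 56.6% in the culture. miR-881 of this list stood at 39.5% and 23.8%, 37.2% and 33.7%, and 28.2%. The 12 names of the miR-17 clusters had a median of 20.7%, from miR-20a to miR-106b* (88.3%), and 1 of them, miR-18a, was called for deep trimming in Thy1+. The 10 names of miR-10, miR-99, miR-100 and miR-125 had the highest list median, 72.7%. The 18 names of the Dlk1-Dio3 cluster ranged from miR-410 (3.17%) to miR-434-5p (91.2%), with a median of 26.1%. Of this cluster, miR-127 stood at 73.6% and 67.4% in Thy1+, 73.3% and 76.1% in Thy1-, and 73.4% in the culture. The 8 names of miR-30 had a median of 28.2%, and in miR-30a and miR-30e the most common trimmed tag lacked 3 bases (21.7% and 25.8% of reads). Of the miR-183 cluster, miR-183 stood at 30.0% and miR-182 at 70.9%.

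miRNAs that mark other cell types carried trimmed tags too. The white blood cell miRNA miR-142-3p stood at 77.4% and 75.7% in Thy1+, 72.1% and 76.7% in Thy1-, and 74.4% in the culture, nearly the same in all libraries. miR-142-5p, from the other arm of that hairpin, stood at 44.0% and 35.0%, 25.5% and 32.9%, and 26.5%, with both Thy1+ libraries above the other 3. miR-126-5p of endothelium, from the 5′ arm of its hairpin, stood at 25.2% and 36.9%, 48.7% and 42.8%, and 60.5% (55.5% to 65.4%), with the culture highest (culture against Thy1+ 1.74, SE 0.47, edgeR adjusted p = 0.366). miR-126-3p, from the other arm, stood at 16.4% and 25.8%, 27.5% and 24.6%, and 27.9%, and gonadal miR-202-5p at 25.8% and 21.5%, 19.7% and 23.4%, and 14.6%. miR-202-3p stood at 51.4% and 39.9%, 37.2% and 41.6%, and 47.9%, the last from 94 reads. The muscle miRNAs miR-1 (16.1%) and miR-206 (8.26%) were trimmed little. miR-451, the red blood cell miRNA made without Dicer, ended 1 base short in 68.4% of reads and was trimmed in 85.6% and 73.9% in Thy1+, 58.0% and 82.6% in Thy1-, and 80.0% in the culture. Of its 7101 reads, 1908 and 4958 came from Thy1-, and the culture value rests on 20 reads (56.3% to 94.3%). The Thy1- replicates of miR-451 lay on both sides of the Thy1+ value of 73.9%. Of another red blood cell miRNA, miR-144, 46.7% and 11.1% of reads were trimmed in Thy1+ (15 and 9 reads), 52.6% and 55.6% in Thy1- and 60% in the culture (5 reads), too few for a test. The remaining name of that list, miR-486, was trimmed in 29.4% of its pooled reads and in 29.0% in the culture (31 reads). miR-199a-5p of mesenchyme stood at 18% and 21.1%, 16.6% and 16.3%, and 22.3%. miR-21, abundant in proliferating cells, was trimmed in 46.7% and 28.1% in Thy1+, 41.2% and 38.5% in Thy1-, and 36.9% in the culture, so its Thy1+ replicates enclosed all other libraries. At the limit of 1000 reads, miR-293* (1037 reads, 99%) was just inside and miR-125b-3p (991 reads, 93%) just outside.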

How the data were processed

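The authors deposited raw read counts per tag, with its placements on the mature miRNAs of miRBase 12 (per the file names) and up to 2 mismatches. Tags span 15 to 25 bases, while 35 is the stated limit. The submitters' processing notes name DESeq. Adapter removal, aligner and genome build: not given in the sources used here. Members, lists and tests were chosen with earlier results of these data known, and deep trimming, planned as an alternative, became a result of its own after its values were seen. Named miRNAs follow a rule: the 10 with most trimmed reads, the 5 with the highest share, up to 5 called names per test and direction whose groups do not overlap, 2 per list, miR-451, miR-21 and those at the read limit. Others were named after their values were seen, for sharing a seed or an ending or as the ends of a range. Trimmed and other reads of names with at least 20 reads in every library were fitted in R 4.3.3 with edgeR 4.0.16 (two-sided, Benjamini-Hochberg over all names tested, threshold 0.05; the SE is the effect divided by the square root of F). DESeq2 1.42.0, limma 3.58.1 and other filters were alternatives, and code was tested on simulated data. Tables were made in Python 3.11.15 (pandas 2.3.3). Same-numbered replicates did not pair (Pearson -0.49 over 168 names), so no block was used. An added base equal to the template counts as templated. Tags shared by several names were left out, and tests planned for extended tags had no counts.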

Additional observations from a re-analysis of the deposited data

How the results depend on the processing

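Counts of called names for trimming by any number of bases were 0 in Thy1+ against Thy1- and 0 in culture against Thy1+, and stayed at 0 under every alternative run (tags on several names split, a minimum of 5 or 100 reads, limma, the most common end as reference, tags of at least 18 bases, each fresh library left out) except DESeq2 (2 and 3 names) and the restriction to at least 2 bases (7 and 7). With the replicate block, Thy1+ against Thy1- had 0 called names for any trimming and 2 for at least 2 bases. With the crossed pairing, added after seeing the data, these were 0 and 17. No paired analysis was possible for the culture because its 1 library shares fewer than 2 numbers with Thy1+. For at least 2 bases, the 7 names of Thy1+ against Thy1- became 3 with DESeq2 and 2 with a minimum of 100 reads, and 0 to 5 when a library was left out; splitting tags between names gave 10 and limma 6. The 7 names of culture against Thy1+ became 5 with DESeq2 and 5 with a minimum of 100 reads, and 0 to 5 when a library was left out. The cause of these changes in number was not tested. With the most common end as reference, the effect of miR-292-3p in Thy1+ for any trimming was 0.70 instead of -1.91, and that of miR-125a-5p in the culture was -0.32 instead of 1.39. With a library left out, the effect of miR-18a for at least 2 bases ran from -3.55 to 0.15. The difference in trimmed percent per library kept its sign in each alternative run, from -3.47 to -7.41 percentage points for Thy1+ minus Thy1- and from -0.414 to -4.37 for culture minus Thy1+. The tests planned for extended tags were not run, as no tag ended past the annotated end, which says nothing of extended molecules. Depth limits rare names such as miR-451, with 20 culture reads, and the 1 culture library gives no replicate error.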

Other observations

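The 5 names given here are those with the largest difference in trimmed share (log2 odds) between 2 pairs of libraries. The pairs were Thy1+ replicate 1 with Thy1- replicate 2 and the other 2 fresh libraries. The ranking covered 168 names with at least 100 reads in each of the 5 libraries, the culture included. The 5 names were chosen after their values were seen, and the choice fixes the pattern. The largest difference was that of miR-18a, a product of the miR-17 cluster. It was trimmed in 3.14% of reads in Thy1+ replicate 1 and 33.4% in replicate 2, in 50.2% in Thy1- replicate 1 and 15.1% in replicate 2, and in 4.52% in the culture. Its neighbour in the same transcript, miR-20a, stayed between 0.886% and 1.53% in the same libraries, and miR-17 between 2.10% and 6.34%. The difference between the pairs had the same sign in these, at -0.62 for miR-20a and -1.14 for miR-17 beside -3.22 for miR-18a (log2 odds), and the pairs did not overlap in any of the 3. The transcript as a whole did not follow this pattern. miR-17* stood at -1.33, also without overlap, but the pairs overlapped in miR-19b (-0.13), miR-19a (0.24) and miR-92a (0.05).

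miR-28, which lies in an intron of Lpp, stood at 73.3% and 24.4% in Thy1+, 42.3% and 74.2% in Thy1- and 47.3% in the culture. miR-99a stood at 92.7% and 77.0%, 77.7% and 90.6%, and 83.0%. miR-128, known from neurons, stood at 34.3% and 15.2%, 14.0% and 36.5%, and 9.90%, and miR-425 at 18.1% and 45.9%, 48.0% and 27.1%, and 24.6%.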
